A study of Homo sapiens with 12 samples.

Results

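The SLC25 carriers are a family of transporters, most of them in the inner mitochondrial membrane. In venetoclax-sensitive and venetoclax-resistant diffuse large B-cell lymphoma (DLBCL) cells, 47 of their genes were examined. The members are the protein-coding genes whose GENCODE symbol is SLC25A followed by a number, with 1 symbol of the 48 left out, and they were taken from 19586 protein-coding genes among the 60675 identifiers counted in each library. Venetoclax inhibits BCL2, the protein that holds back permeabilization of the outer mitochondrial membrane. SUDHL6 and SUDHL16 are human DLBCL cell lines from ATCC. Each parental line was compared with the venetoclax-resistant line derived from it by prolonged culture in rising venetoclax, which grew at no less than 10 times the original IC50 and was kept under venetoclax, whereas no drug is given for the parental lines. Both were moved to fresh medium for experiments, and whether venetoclax was present when RNA was taken is not stated. Each resistant line is a single derived population, and 3 RNA-sequencing libraries were made of each of the 4 conditions. Since nothing says that the 3 libraries were separate cultures, the p-values measure only the spread between these libraries, which may be technical.

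Carriers of this family share a fold of repeated membrane-spanning segments that opens in turn to the intermembrane space and to the matrix. Each exchanges or cotransports a small set of solutes, such as ADP against ATP, phosphate with a proton, or malate against 2-oxoglutarate. Oxidative phosphorylation depends on this traffic, because ATP made in the matrix leaves and ADP and phosphate enter through these proteins. All members described here are nuclear genes.

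Total counts were 33992784 to 40885665 in the SUDHL6 libraries and 4131927 to 22068221 in the SUDHL16 libraries. The lowest belonged to CE-26, a SUDHL16 parental library, which also had counts on 34938 genes, while 20896 to 24655 genes had counts in the remaining SUDHL16 libraries. Protein-coding genes took 55.4% of its counts (95% Wilson interval 55.32 to 55.41, counting error only), against 84.3 to 90.2% in the remaining SUDHL16 libraries, and the members took 0.179% (0.1747 to 0.1828) against 0.274 to 0.333%. The SUDHL16 fold changes and counts are therefore given with and without it. Kit and instrument differ between the lines (NEBNext Ultra II and a HiSeq for SUDHL6, Illumina Stranded Total RNA with RiboZero Plus and a NovaSeq for SUDHL16) and cannot be told apart from the line. The 6 B-cell markers summed to 3957 to 4154 CPM (counts scaled to the size of the library) in SUDHL6 and 2334 to 3933 CPM in SUDHL16, while the 5 myeloid markers summed to at most 7.58 CPM in any library. The 5 T-cell markers summed to 1.98 to 15.2 CPM in the parental and 16.5 to 19.9 CPM in the resistant SUDHL16 libraries, where CD3E rose (log2 fold change 2.59, adjusted p = 0.0455; 3.34, adjusted p = 0.00131 without CE-26). CD247 had 2.23 (adjusted p = 0.408; 4.26, adjusted p = 0.0283 without CE-26). CD3G went the other way (-2.48, adjusted p = 0.394; -0.85, adjusted p = 0.757 without CE-26), and CD3D and CD2 were at 0 in the resistant libraries. The part of these markers in the carrier results was not tested. In these bulk samples, fewer cells of a type and less RNA per cell cannot be told apart.

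The genes on which the results turn are SLC25A27, which moved in opposite directions in the lines, SLC25A11 and SLC25A4, whose changes in SUDHL16 were the next in size of evidence, and SLC25A5 and SLC25A6, the carriers with the highest level per length. The RefSeq promoters of these genes (GRCh38.p14, 250 bases before the transcription start to 50 after it, 5′ to 3′ on the strand of the gene) lie at chr6:46652725-46653024 (plus strand), chr17:4939997-4940296 (minus), chr4:185143016-185143315 (plus), chrX:119468194-119468493 (plus) and chrX:1392064-1392363 (minus). They are shown so that the start regions of the carriers that moved and of those that dominated the family can be read side by side, with matches on either strand in capitals. The letters searched were CCAAT for the CCAAT box, GGGCGG for the GC box of the SP family, CACGTG for the E-box of the MYC family and TATAAA for the TATA box.
SLC25A27: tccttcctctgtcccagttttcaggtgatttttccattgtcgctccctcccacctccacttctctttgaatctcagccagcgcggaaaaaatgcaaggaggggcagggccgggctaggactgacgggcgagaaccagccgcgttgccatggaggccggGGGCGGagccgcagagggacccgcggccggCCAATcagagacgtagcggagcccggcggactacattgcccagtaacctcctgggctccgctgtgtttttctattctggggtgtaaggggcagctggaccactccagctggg
SLC25A11: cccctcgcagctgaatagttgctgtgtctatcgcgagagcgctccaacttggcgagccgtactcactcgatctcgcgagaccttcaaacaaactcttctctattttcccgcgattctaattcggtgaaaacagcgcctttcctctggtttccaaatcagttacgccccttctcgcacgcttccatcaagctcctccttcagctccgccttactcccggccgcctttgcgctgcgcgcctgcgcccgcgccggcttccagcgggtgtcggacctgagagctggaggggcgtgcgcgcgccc
SLC25A4: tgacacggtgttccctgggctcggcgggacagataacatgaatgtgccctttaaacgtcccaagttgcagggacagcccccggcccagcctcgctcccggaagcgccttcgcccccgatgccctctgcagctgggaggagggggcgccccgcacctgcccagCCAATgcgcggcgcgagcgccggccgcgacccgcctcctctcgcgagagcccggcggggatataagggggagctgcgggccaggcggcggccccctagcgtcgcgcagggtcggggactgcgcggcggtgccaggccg
SLC25A5: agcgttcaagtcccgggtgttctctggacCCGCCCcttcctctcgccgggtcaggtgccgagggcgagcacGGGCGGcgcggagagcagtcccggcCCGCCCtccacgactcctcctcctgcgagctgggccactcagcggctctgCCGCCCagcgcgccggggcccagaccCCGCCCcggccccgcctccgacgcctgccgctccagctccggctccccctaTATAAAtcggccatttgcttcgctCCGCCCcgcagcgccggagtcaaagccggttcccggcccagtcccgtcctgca
SLC25A6: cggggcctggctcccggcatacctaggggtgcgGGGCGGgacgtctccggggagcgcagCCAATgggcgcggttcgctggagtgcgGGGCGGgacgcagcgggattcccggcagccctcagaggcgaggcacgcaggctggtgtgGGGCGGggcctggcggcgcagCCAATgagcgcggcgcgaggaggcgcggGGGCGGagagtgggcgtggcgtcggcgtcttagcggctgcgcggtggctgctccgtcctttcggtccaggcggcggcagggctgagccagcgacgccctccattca
The SLC25A27 window held 1 GC box and 1 CCAAT box, that of SLC25A4 held 1 CCAAT box, and that of SLC25A11 held none of these letters. SLC25A5 had 6 GC boxes and 1 TATA box, and SLC25A6 had 4 GC boxes and 2 CCAAT boxes. Of the 39 members with a promoter in the table, 69.2% held a GC box, against 44.7% of all 27195 promoters, and 48.7% against 35.7% held a CCAAT box. The E-box letters were in 17.9% of the members and 7.45% of all promoters, and the TATA box in 7.69% and 12%. These sets are unlike, as the members are protein-coding and the 27195 promoters, more than the 19586 protein-coding genes counted, were not limited to that type. Whether the members differ from other protein-coding genes in these shares was not tested. None of these motifs overlap in the printed windows, and a match describes letters and not a bound site.

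The level of each carrier was set per length, as CPM per kilobase of its canonical GENCODE transcript, because CPM alone favours long transcripts. SLC25A5 and SLC25A6, the ADP/ATP carriers also known as ANT2 and ANT3, held rank 1 and rank 2 in all 4 conditions. SLC25A5 had 422, 395, 385 and 466 CPM per kilobase in SUDHL6 parental, SUDHL6 resistant, SUDHL16 parental and SUDHL16 resistant cells, and SLC25A6 had 275, 286, 261 and 357. Without CE-26 the SUDHL16 parental means were 408 for SLC25A5 and 269 for SLC25A6. In each condition the lowest SLC25A5 library was above the highest SLC25A6 library. Both together made up 47.9% ± 0.0686 (SD, n = 3) of the length-scaled signal of the family in SUDHL6 parental and 47.1% ± 0.0916 in SUDHL6 resistant cells, and 53.4% ± 1.25 and 56.6% ± 2.39 in the corresponding SUDHL16 cells. These shares, and those of SLC25A27 below, depend on the length used and include CE-26. They were not computed per kilobase of coding sequence. On that scale SLC25A5 and SLC25A6 had 617 and 446 CPM in SUDHL6 parental cells, beside 382 for SLC25A3 and 332 for SLC25A27.

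SLC25A27, an uncoupling protein-like carrier also called UCP4, held rank 3 in SUDHL6, with 110 CPM per kilobase in parental and 133 in resistant cells, or 7.58% ± 0.084 and 9.18% ± 0.0527 of the family signal. In SUDHL16 it held rank 24 in parental cells, with 10.5 CPM per kilobase (11.2 without CE-26), and rank 35 in resistant cells, with 3.26. This left it 0.876% ± 0.148 and 0.225% ± 0.0528 of the family signal. The level between the lines was not tested, since kit and line coincide. SLC25A39, a mitochondrial glutathione transporter, stood at rank 3 or 4 in every condition, at 60.1 to 80.6 CPM per kilobase, and SLC25A1, the citrate carrier, reached 65.7 and 86.1 in the SUDHL16 conditions against 32.7 and 34.4 in SUDHL6. In the parental SUDHL16 libraries these neighbours in the order could not be separated, as SLC25A39 ranged from 62.1 to 81.7 and SLC25A1 from 50.3 to 83.1. Without CE-26 their means were 71.9 and 73.4. These places rest on the transcript length. Per kilobase of coding sequence SLC25A39 held rank 6 or 7. SLC25A27 then held rank 4 in parental and rank 3 in resistant SUDHL6 cells, and rank 19 and rank 35 in SUDHL16.

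The place of SLC25A3, which carries phosphate and copper into the matrix, also depended on the length used. Its canonical transcript has 5984 bases, of which 1083 are coding. It held rank 5 or 6 in the conditions per kilobase of transcript and rank 3 or 4 per kilobase of coding sequence, where it had 382 and 380 CPM in SUDHL6 and 230 and 205 in SUDHL16. SLC25A5 and SLC25A6 held rank 1 and rank 2 on that scale too.

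**Figure D1:**
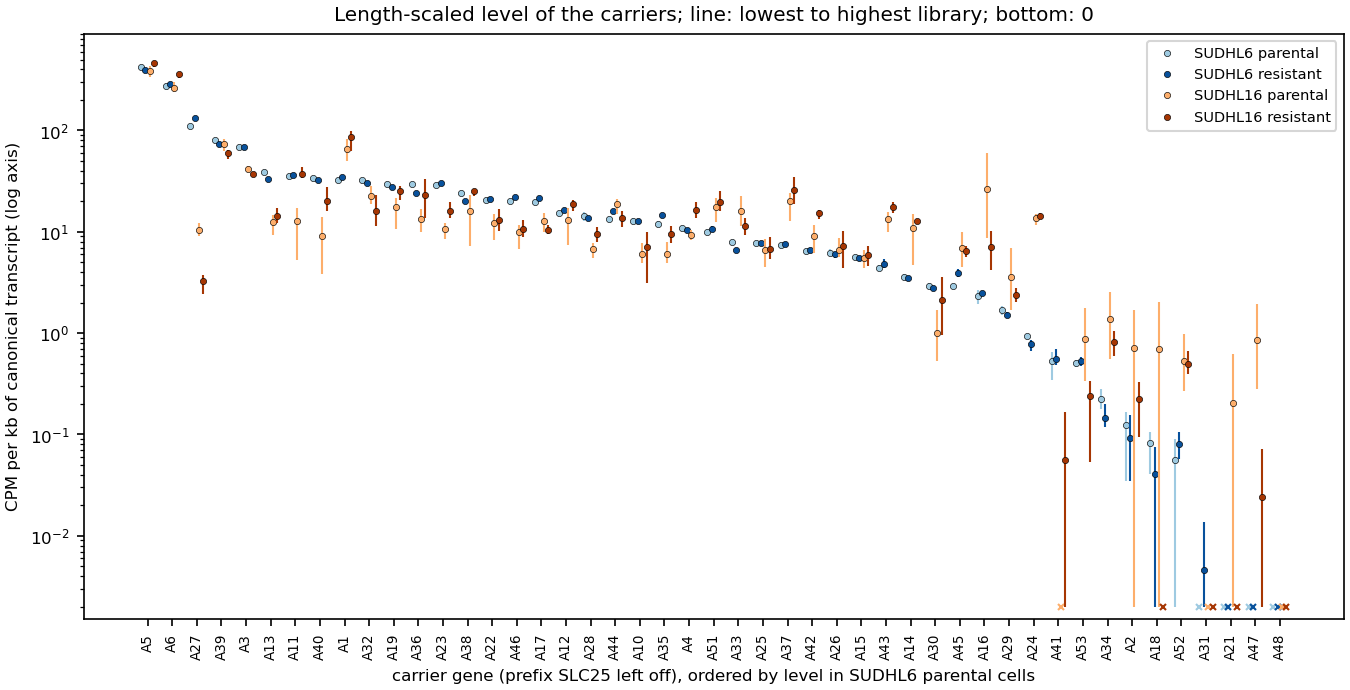
Length-scaled level of the 47 SLC25A genes (log axis, CPM per kilobase of canonical transcript) in the 4 conditions, ordered by the SUDHL6 parental level, where points are means of 3 libraries, lines run from the lowest to the highest library, and values of 0 are drawn at the bottom. SLC25A5 and SLC25A6 lead in all conditions, and SLC25A27 stands at 110 and 133 in SUDHL6 against 10.5 and 3.26 in SUDHL16.

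At the other end, 7 members did not have enough counts to be tested in either line when all libraries were used. SLC25A48 had 0 counts in all 12 libraries, and SLC25A31, the ADP/ATP carrier of the germ line, had 1 count in CE-11 and 0 elsewhere. The 3 counts that a 0 allows correspond to 0.0737 to 0.0885 CPM per library in SUDHL6 and 0.128 to 1.03 CPM in SUDHL16, for counting error only. SLC25A2, a second ornithine carrier, had at most 11 counts per library, SLC25A18, a glutamate carrier, at most 13, SLC25A21, the oxodicarboxylate carrier, at most 7, SLC25A47 at most 10, and SLC25A52, an NAD carrier, at most 23. SLC25A41 was tested in SUDHL6 only, with 18 to 43 counts there against 0 to 6 in SUDHL16. The 40 members tested in SUDHL6 varied little between libraries, with a median coefficient of variation of 3.13% in parental and 2.65% in resistant cells, whereas the 39 tested in SUDHL16 had medians of 26.3% (14.9% without CE-26) and 18.9%.

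To determine whether carrier expression differed in resistant SUDHL6 cells, the libraries were compared with edgeR's quasi-likelihood test over all 16662 genes with enough counts. Changes among the carriers were small. No member reached both an adjusted p (Benjamini-Hochberg) under 0.05 and a 1.5-fold change (0 of 40, where 8.96% of all genes tested were called). DESeq2 also called 0. An unadjusted p under 0.05 was found for 16 of the 40, and for 7523 of all 16662 genes. Without the limit on fold, 14 of 40 passed (background 37.3%), of which 7 rose (background 17.7%) and 7 fell (background 19.7%). Libraries did not overlap between the groups for 10 members that were higher (background 23.1%) and 10 that were lower (background 24.8%). The members had a median of -0.01 on the log2 scale, with 19 higher and 21 lower, beside -0.00 over all genes.

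The ADP/ATP carriers of SUDHL6 shifted by small amounts. SLC25A5 gave 550, 548 and 555 CPM in the parental libraries CE-7, CE-8 and CE-9, and 519, 511 and 520 in the resistant libraries CE-10, CE-11 and CE-12. The groups did not overlap, and SLC25A5 fell by 0.09 on the log2 scale (SE 0.02, adjusted p = 5.58e-04). SLC25A6 gave 397, 398 and 401 CPM in the parental and 414, 417 and 412 in the resistant libraries, and rose by 0.06 (SE 0.02, adjusted p = 0.0176). Without the parental library CE-7 its adjusted p was 0.0545. SLC25A4, the ADP/ATP carrier typical of muscle and heart (ANT1), gave 48.3, 49.4 and 46.4 CPM against 45.3, 48.1 and 45.3, with overlapping groups and a log2 fold change of -0.05 (SE 0.04, adjusted p = 0.316). SLC25A3 gave 413, 411 and 418 CPM against 416, 398 and 420, so that the groups overlapped (log2 fold change -0.01, SE 0.02, adjusted p = 0.78).

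SLC25A27 was the member with the smallest p in SUDHL6. Its CPM were 321, 324 and 320 in the parental and 391, 388 and 385 in the resistant libraries. All resistant libraries were higher, and the gene rose with a log2 fold change of 0.27 (SE 0.02, adjusted p = 1.21e-07). The 2 other uncoupling protein-like members, SLC25A14 and SLC25A30, had log2 fold changes of -0.03 and -0.06 and did not pass.

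Among carriers of amino acids and glutathione, SLC25A44, which brings branched-chain amino acids into the matrix, rose in SUDHL6 (log2 fold change 0.27, SE 0.03, adjusted p = 2.94e-05). SLC25A38, the glycine carrier that supplies haem synthesis, fell by 0.25 (SE 0.04, adjusted p = 1.18e-04), and SLC25A39 fell by 0.14 (SE 0.03, adjusted p = 0.00248). The 4 other tested members of this role lay between -0.15 and -0.03 and did not pass. Of the aspartate and glutamate carriers, SLC25A13 (citrin), which exports aspartate against glutamate in the malate-aspartate shuttle, fell by 0.22 (SE 0.02, adjusted p = 1.20e-05), while SLC25A12, its close relative, had 0.08 (adjusted p = 0.0802) and SLC25A22 had 0.04. The 3 tested di- and tricarboxylate carriers ranged from -0.01 to 0.07 and none passed.

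All members that passed among the cofactor and pyrimidine nucleotide carriers of SUDHL6 were lower in resistant cells. SLC25A36 and SLC25A33, which carry pyrimidine nucleotides, fell by 0.30 (SE 0.02, adjusted p = 8.09e-07) and 0.25 (SE 0.05, adjusted p = 0.00158). SLC25A32, which carries folate and FAD, fell by 0.08 (SE 0.03, adjusted p = 0.0326). This last value is fragile, since it lost the threshold under 10 of 12 alternatives. Among these, the adjusted p was 0.0686 to 0.129 without any of CE-7, CE-8, CE-9, CE-10 or CE-11. The 4 other tested members of this role were not past the threshold, with log2 fold changes of -0.09 to 0.11.

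Of the ATP-Mg/phosphate and adenine nucleotide carriers in SUDHL6, SLC25A17, a peroxisomal carrier of CoA and nucleotides, rose by a log2 fold change of 0.13 (SE 0.04, adjusted p = 0.0123; 0.0698 without CE-12), and the 4 others ranged from -0.28 to 0.06 without passing. The iron carriers SLC25A28 and SLC25A37 (mitoferrins) had -0.08 and 0.03. Among members whose substrate is less settled, SLC25A45 rose by 0.41 (SE 0.10, adjusted p = 0.00456), from 6.43, 6.49 and 6.88 CPM to 8.53, 9.66 and 8.12, SLC25A35 by 0.30 (SE 0.06, adjusted p = 9.47e-04) and SLC25A46, which sits in the outer membrane, by 0.12 (SE 0.03, adjusted p = 0.00215). SLC25A34, with 14 to 30 counts per library, had the lowest value of all members, -0.60 (SE 0.32, adjusted p = 0.172).

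**Figure D2:**
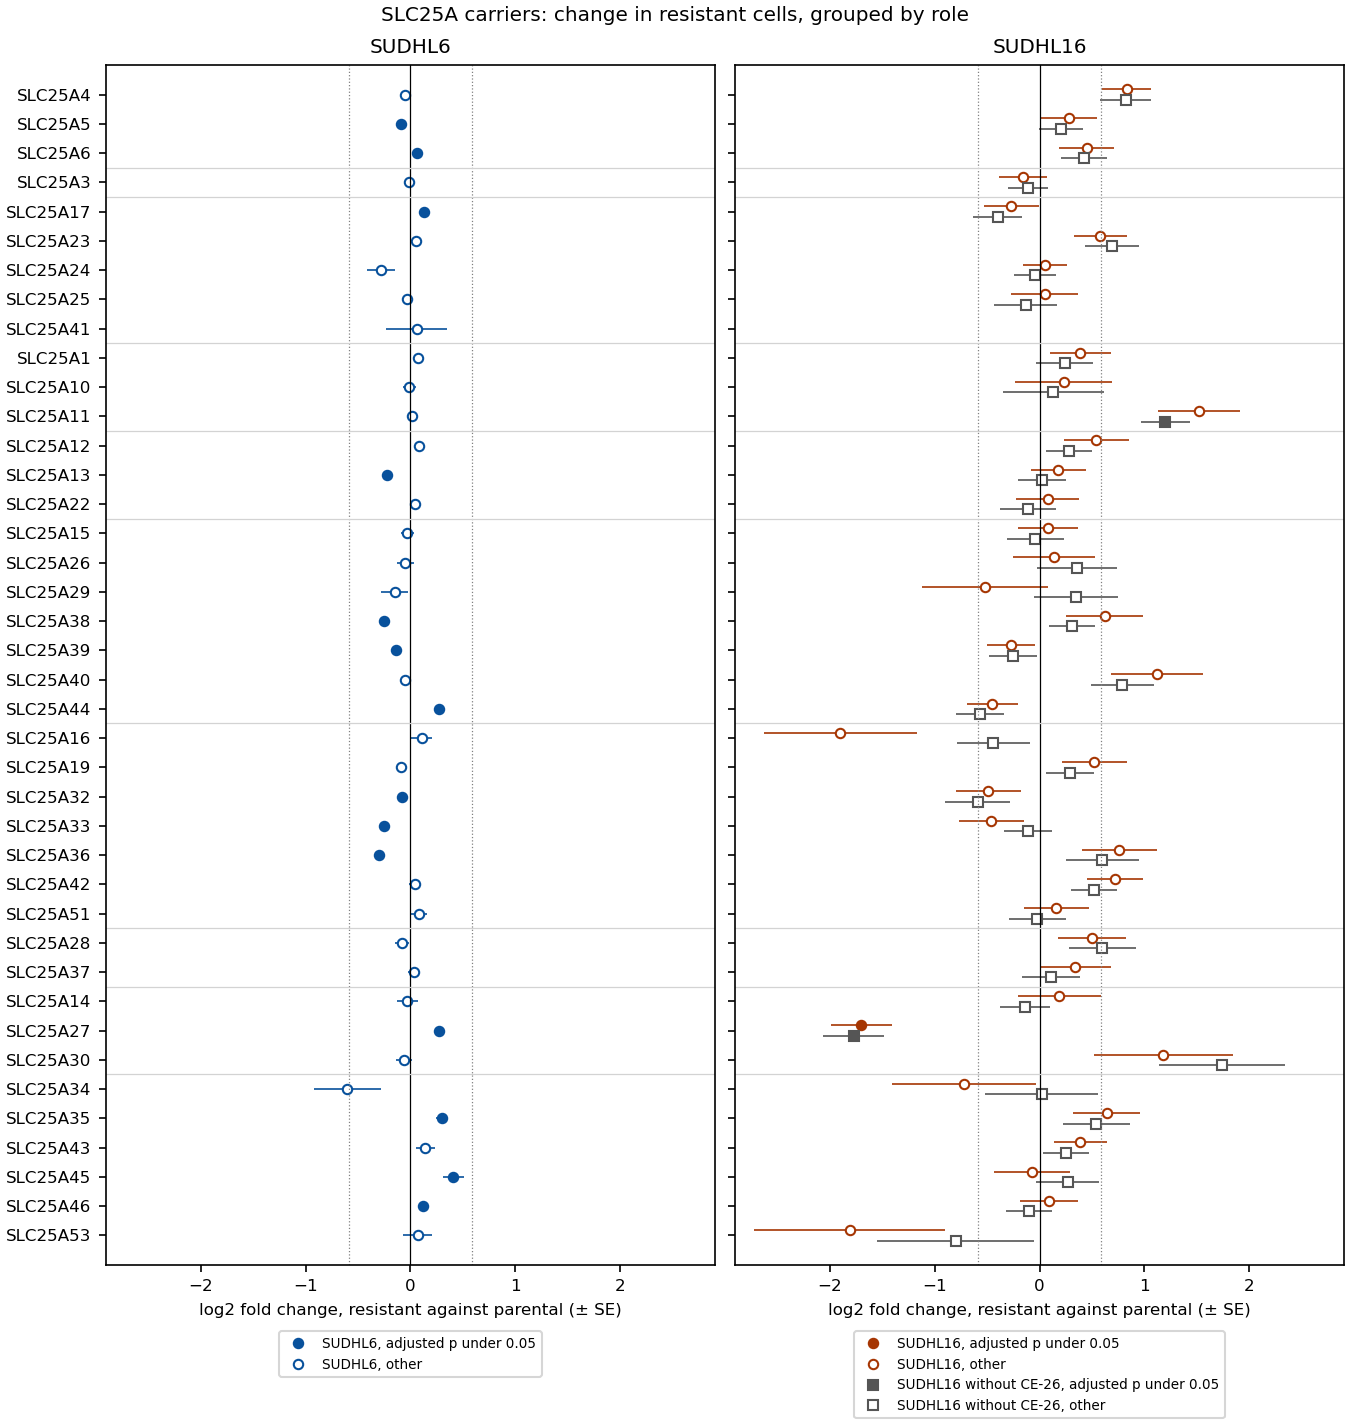
Log2 fold change of resistant against parental cells (horizontal axis, ± SE) for the members tested in either line, grouped by role with grey lines between roles. Filled symbols passed an adjusted p of 0.05, squares are SUDHL16 without CE-26, and dotted lines mark 1.5-fold: in SUDHL6 all filled points lie inside these lines, and in SUDHL16 SLC25A27 lies to the left of them with and without CE-26.

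In SUDHL16, 1 carrier was called. SLC25A27 had 36, 26.9 and 29.6 CPM in the parental libraries CE-25, CE-26 and CE-27, and 10.9, 7.2 and 10.5 CPM in the resistant libraries CE-28, CE-29 and CE-30. Every resistant library was below every parental library, and the gene fell by 1.70 on the log2 scale, or 3.24-fold (SE 0.29, adjusted p = 0.0138). Leaving out CE-26 gave -1.77 (SE 0.29, adjusted p = 0.00638). The call was lost when any of the 5 other libraries was left out. The adjusted p was 0.0699 without CE-25, 0.0536 without CE-27, 0.0587 without CE-28, 0.0756 without CE-29 and 0.0594 without CE-30, with log2 fold changes of -1.79 to -1.54.

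The share of members called in SUDHL16 was 1 of 39, where 5.3% of the 15708 genes tested were called. An unadjusted p under 0.05 was found for 7 members, and for 3002 of those 15708 genes. Without CE-26, 2 of 40 members were called (background 10%). Over the members the median was 0.18 on the log2 scale, with 27 higher and 12 lower, beside -0.02 over all genes. Without CE-26 the median was 0.12, with 23 higher and 17 lower, beside 0.05 over all genes. Libraries did not overlap between the groups for 7 members that were higher in resistant cells (SLC25A4, SLC25A6, SLC25A11, SLC25A23, SLC25A28, SLC25A40 and SLC25A42; background 14.6%) and for 3 that were lower (SLC25A3, SLC25A27 and SLC25A53; background 11.9%). Without CE-26 these counts were 8 higher, with SLC25A30 added (background 22.4%), and 5 lower, with SLC25A17 and SLC25A44 added (background 19.8%).

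SLC25A11, the carrier that exchanges 2-oxoglutarate for malate in the malate-aspartate shuttle, was the second member called without CE-26. It had 28.9, 8.95 and 26.6 CPM in the parental and 73.7, 57.5 and 58.7 CPM in the resistant SUDHL16 libraries. All resistant libraries were higher, and CE-26, with 26 counts, was the lowest of the parental ones. The log2 fold change was 1.52 (SE 0.39, adjusted p = 0.0648) with all libraries and 1.20 (SE 0.23, adjusted p = 0.0135) without CE-26, where it rose by the test. With all libraries SLC25A11 was also called by DESeq2, without the filter on low counts, with protein-coding genes only and in the single fit of 12 libraries. Upper-quartile scaling and library totals did not call it. Leaving out any library other than CE-26 gave no call, with an adjusted p of up to 0.204. In SUDHL6 the same gene had 59.4, 60.5 and 62.2 CPM in parental and 61.7, 60.9 and 62.5 CPM in resistant cells, which overlap (log2 fold change 0.02, SE 0.03, adjusted p = 0.6). The citrate carrier SLC25A1 and the dicarboxylate carrier SLC25A10 had log2 fold changes of 0.39 and 0.23 in SUDHL16 (0.24 and 0.13 without CE-26) and did not pass.

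The ADP/ATP carriers of SUDHL16 all had log2 fold changes above 0, but none passed (1 had an unadjusted p under 0.05). SLC25A4 had 36.9, 39.9 and 46.1 CPM in the parental and 61, 87.4 and 70 CPM in the resistant libraries. Its groups did not overlap, with a log2 fold change of 0.83 (SE 0.23, adjusted p = 0.0839) and 0.82 (SE 0.24, adjusted p = 0.0682) without CE-26, and DESeq2 gave an adjusted p of 0.0115. SLC25A6 had 348, 356 and 433 CPM against 544, 477 and 530, again without overlap (0.45, SE 0.26, adjusted p = 0.399; 0.42, adjusted p = 0.304 without CE-26). SLC25A5 had 496, 442 and 571 CPM against 548, 639 and 639, so CE-27 was above CE-28 (0.28, SE 0.27, adjusted p = 0.649; 0.20, adjusted p = 0.648 without CE-26). SLC25A3 had 237, 265 and 244 CPM against 217, 234 and 216, slightly lower in each resistant library, with a log2 fold change of -0.16 (SE 0.23, adjusted p = 0.771; -0.11, adjusted p = 0.811 without CE-26). Since SLC25A4, SLC25A5 and SLC25A6 are close paralogs, reads shared between them could be split by the counting, which is not described. Pseudogenes named after SLC25A3, SLC25A5, SLC25A6, SLC25A15 and SLC25A51 had at most 38 counts in any library, and those of other members were not looked up.

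**Figure D3:**
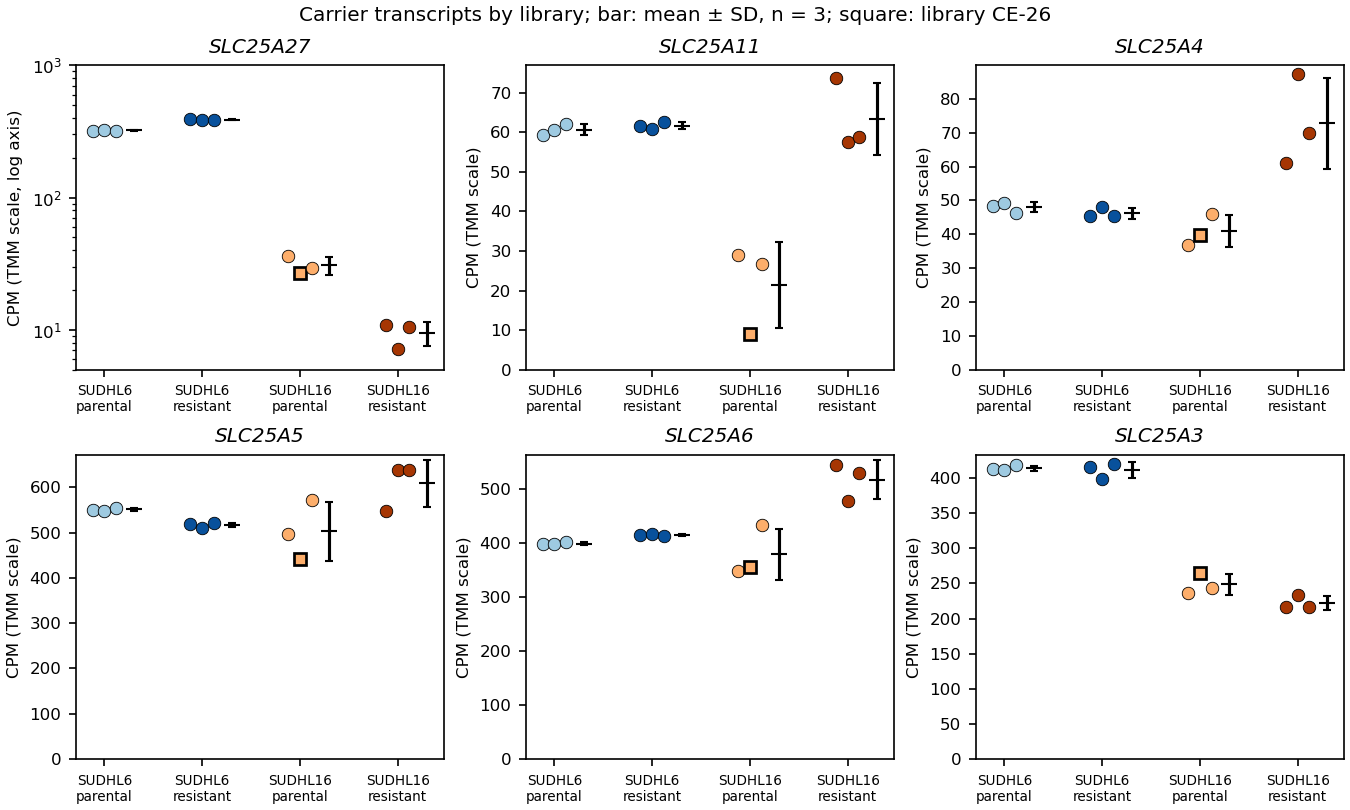
CPM of 6 carriers in each of the 12 libraries (log axis for SLC25A27, linear from 0 for the others), with the mean ± SD of 3 libraries beside the points and CE-26 as a square. SLC25A27 is at 320 to 391 CPM in SUDHL6 and falls from 26.9 to 36 to 7.2 to 10.9 CPM in SUDHL16, and SLC25A11 and SLC25A4 are separated between parental and resistant libraries in SUDHL16 but not in SUDHL6.

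The remaining roles of SUDHL16 gave no further call with all libraries. The 7 tested carriers of amino acids, glutathione and S-adenosylmethionine ranged from -0.52 to 1.12 (-0.57 to 0.79 without CE-26), the highest with all libraries being SLC25A40, a glutathione transporter (adjusted p = 0.207). The lowest with all libraries, SLC25A29, a carrier of basic amino acids, had 15.8 CPM in CE-26 against 3.86 in CE-25 and 4.78 in CE-27. Its log2 fold change turned from -0.52 (SE 0.60, adjusted p = 0.707) to 0.35 (SE 0.40, adjusted p = 0.68) without CE-26. The 7 tested cofactor and nucleotide carriers ranged from -1.90 to 0.76, and the lowest, SLC25A16, rested on CE-26. This library had 399 CPM, while CE-25 and CE-27 had 56.8 and 71.2, and leaving it out gave -0.44 (SE 0.35, adjusted p = 0.534), with a range of -0.59 to 0.60 over the 8 members of the role then tested. The 3 tested aspartate and glutamate carriers ranged from 0.08 to 0.54 (-0.11 to 0.28 without CE-26), the 4 ATP-Mg/phosphate and adenine nucleotide carriers from -0.27 to 0.58 (-0.40 to 0.69), and the iron carriers from 0.34 to 0.50 (0.11 to 0.60). SLC25A30, another uncoupling protein-like member, had 1.18 (SE 0.66, adjusted p = 0.386), and 1.74 (SE 0.60, adjusted p = 0.119) without CE-26. SLC25A53, of unknown substrate, had -1.81 (SE 0.91, adjusted p = 0.33) on 5 to 51 counts, and -0.80 without CE-26. SLC25A40, SLC25A29, SLC25A16, SLC25A30 and SLC25A53 are named here because of their values.

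A test of the difference in change between SUDHL16 and SUDHL6 was made in a fit of all 12 libraries, in which 43 members had enough counts. The difference, SUDHL16 minus SUDHL6, was called for 2 of 43 members (background 7.16%). SLC25A27 differed by -1.95 (SE 0.27, adjusted p = 0.00101), rising in SUDHL6 and falling in SUDHL16, and SLC25A4 by 0.92 (SE 0.23, adjusted p = 0.0309). Without CE-26, 4 of 43 were called (background 14%): SLC25A27 (-2.09, adjusted p = 6.87e-05), SLC25A4 (0.84, 0.022), SLC25A11 (1.13, 7.22e-04) and SLC25A44 (-0.89, 0.0053). With all libraries, SLC25A11 had a difference of 1.48 (SE 0.45, adjusted p = 0.0749) and SLC25A44 of -0.70 (SE 0.26, adjusted p = 0.132). The SLC25A27 difference was called under all 17 alternatives. That of SLC25A4 was lost without any of the SUDHL6 libraries (adjusted p 0.0806 to 0.101) and without CE-25, CE-29 or CE-30 (0.0687, 0.0812 and 0.0588), with library totals (adjusted p = 0.0686) and without the filter on low counts (adjusted p = 0.143).

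The genes on either side of the carriers were also examined, and are given here for those that moved and for some others. SLC25A27 lies at chr6:46652915-46678190 on the plus strand (GRCh38, 9 exons in its canonical transcript). Of the 5 tested protein-coding genes that start within 1 Mb of it, 4 were lower in resistant SUDHL16 cells and 1 was called, where 5.3% of all genes tested were called. Their median log2 fold change was -0.90, against -1.70 for the carrier, and without CE-26 again 4 of 5 were lower and 1 was called (background 10%), with a median of -0.95. In SUDHL6, 6 of 8 neighbours were higher, with a median of 0.20 against 0.27. The antisense RNA TDRD6-AS1, which overlaps 7747 bases of the gene, had 0 counts in all SUDHL16 libraries and 8 to 43 in those of SUDHL6.

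SLC25A11 lies at chr17:4937130-4940053 on the minus strand (8 exons). In SUDHL16, 29 of its 32 tested neighbours were higher and 7 were called (background 5.3%), and their median was 0.96 on the log2 scale. Without CE-26, 31 of 33 were higher and 9 were called (background 10%), with a median of 0.91. In SUDHL6, 22 of 37 were higher and the median was 0.03. RNF167, an E3 ubiquitin ligase gene on the opposite strand that overlaps 46 bases of SLC25A11, rose in SUDHL16 (log2 fold change 1.71, adjusted p = 0.048; 1.40, adjusted p = 0.0147 without CE-26), and reads of the overlap cannot be assigned if the counting did not use strand. SLC25A35, on the same chromosome, had a SUDHL16 log2 fold change of 0.64 (adjusted p = 0.332) beside a neighbour median of 0.88, with 42 of 45 higher (0.88 and 43 of 46 without CE-26). Other carriers did not go with their neighbours in SUDHL16. SLC25A10, also on chromosome 17, had 0.23 beside a neighbour median of -0.89, with 41 of 44 lower (0.13 beside -0.78, with 40 of 44 lower, without CE-26). SLC25A40 had 1.12 beside 0.02 (0.79 beside -0.06 without CE-26). For SLC25A4, at chr4:185143266-185150382, 10 of 13 neighbours were higher in SUDHL16, with a median of 0.41 against 0.83 (11 of 13 and 0.41 without CE-26). The part of the neighbourhood in these changes was not tested.

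**Figure D4:**
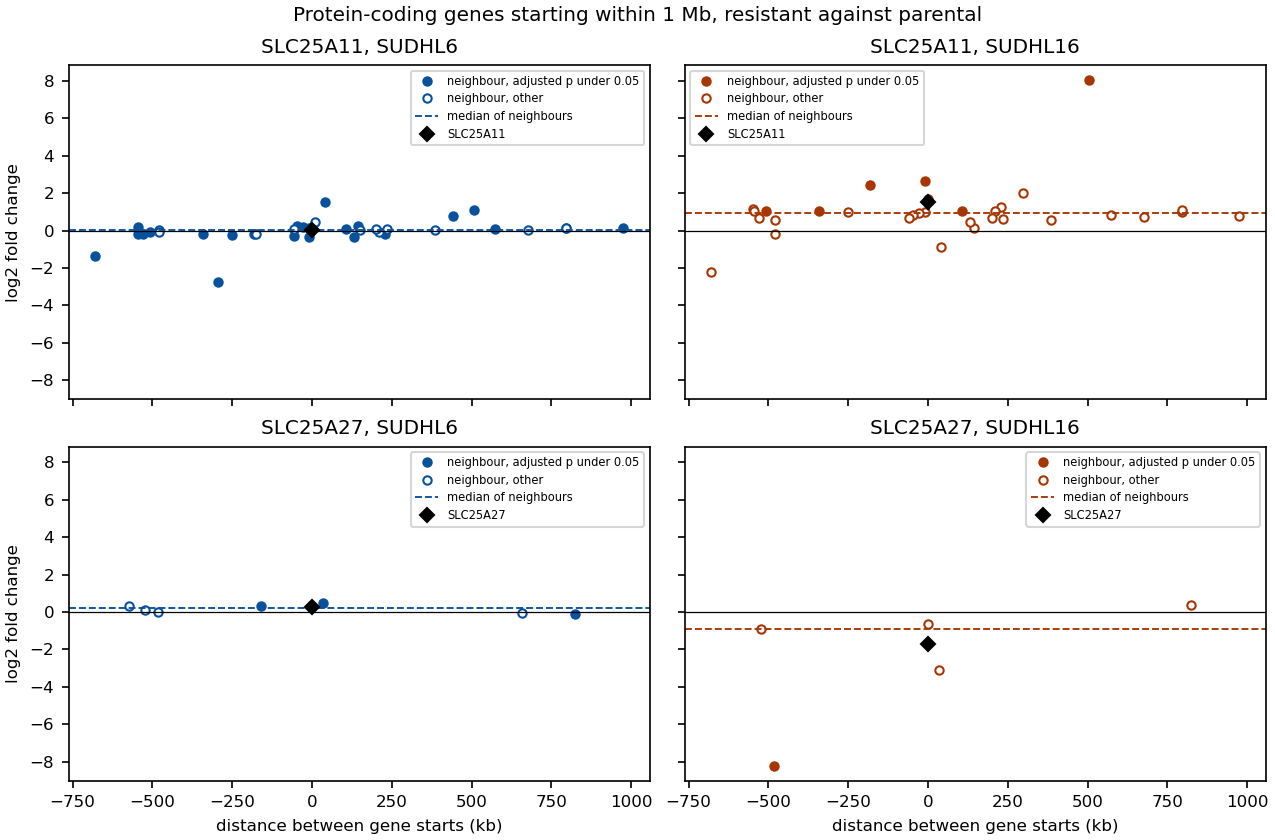
Log2 fold change of protein-coding genes that start within 1 Mb of SLC25A11 and SLC25A27 (vertical axis) against the distance between gene starts in kilobases, with the carrier as a black diamond ± SE and the median of the neighbours as a dashed line. Around SLC25A11 the SUDHL16 points centre on 0.96 and the SUDHL6 points on 0.03, and around SLC25A27 the medians are -0.90 and 0.20.

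Other genes of mitochondrial transport were counted in the same fits. For an unadjusted p under 0.05, the background was 7523 of 16662 genes in SUDHL6. In SUDHL16 it was 3002 of 15708 genes, and 3789 of 16280 without CE-26. Of the uncoupling and mitochondrial carrier homologue proteins that are outside the SLC25A symbols, 4 of 5 were tested and none was called in either line (background 8.96% in SUDHL6 and 5.3% in SUDHL16). In SUDHL6, 1 passed higher and 1 lower (background 17.7% and 19.7%; 2 at an unadjusted p under 0.05). UCP2, an uncoupling protein, rose in SUDHL6 below 1.5-fold (log2 fold change 0.26, SE 0.03, adjusted p = 1.35e-05), and had 0.78 (SE 0.25, adjusted p = 0.135; 0.66, adjusted p = 0.0862 without CE-26) in SUDHL16. MTCH1, a carrier homologue of the outer membrane, fell by 0.10 (SE 0.02, adjusted p = 0.00241) in SUDHL6. All 16 genes of carrier import, the TOM receptors and pores and the small TIM chaperones with the TIM22 complex, were tested. In SUDHL6, 1 passed higher and 4 lower (background 17.7% and 19.7%), with 0 called (background 8.96%; 8 at an unadjusted p under 0.05), and AGK, a TIM22 complex subunit, fell by 0.58 (SE 0.05, adjusted p = 1.63e-06). In SUDHL16 none passed with or without CE-26 (3 and 2 at an unadjusted p under 0.05).

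Of 23 genes of other mitochondrial metabolite and ion transport, 22 were tested. In SUDHL6, 6 passed higher and 6 lower (background 17.7% and 19.7%), and 1 was called (background 8.96%). This was ABCB6, a porphyrin transporter, rising from 1.94 to 2.89 CPM to 5.27 to 6.75 CPM (log2 fold change 1.39, SE 0.16, adjusted p = 1.92e-05). In SUDHL16 none passed with all libraries (5 at an unadjusted p under 0.05). Without CE-26, 2 of 22 were called (background 10%). In that fit MCU, the pore of the calcium uniporter, fell by 1.09 (SE 0.22, adjusted p = 0.0176), and SFXN3, a sideroflexin, fell by 2.12 (SE 0.55, adjusted p = 0.0456).

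The enzymes that work with the carriers in the malate-aspartate, glycerol phosphate and citrate shuttles held the largest change of these 4 lists in SUDHL16. In SUDHL6, 8 of these enzymes were tested, 3 passed higher and 1 lower (background 17.7% and 19.7%), and 1 was called (background 8.96%). This was GPD2, the mitochondrial glycerol 3-phosphate dehydrogenase, which rose in SUDHL6 from 2.94 to 5.75 CPM to 6.94 to 7.25 CPM (log2 fold change 0.64, SE 0.18, adjusted p = 0.015). In SUDHL16 it fell from 41 to 59.8 CPM in parental to 0.938 to 2.16 CPM in resistant libraries (log2 fold change -5.10, SE 0.40, adjusted p = 5.51e-04; -5.21, adjusted p = 1.58e-04 without CE-26). Of 9 tested enzymes in SUDHL16, GPD2 alone passed with all libraries (background 5.3%), and without CE-26 3 did (background 10%), as MDH2, the mitochondrial malate dehydrogenase, rose by 1.02 (SE 0.26, adjusted p = 0.046) and ACLY, which splits exported citrate in the cytosol, fell by 0.96 (SE 0.22, adjusted p = 0.0289).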

How the data were processed

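RNA was extracted with TRIzol from the parental and resistant lines. The authors trimmed adapters with Trim Galore and aligned reads to GRCh38 with HISAT2 followed by StringTie. The deposited values are raw counts per Ensembl gene, 1 file per library, without normalization. The counting tool, annotation release and strand setting are not given in the sources used here. Of the 60675 identifiers, 56558 were matched to GENCODE release 44, from which symbols, coordinates and transcript lengths were taken.

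Libraries were grouped by their labels. Each line was fitted alone with edgeR 4.0.16 in R 4.3.3 (filterByExpr, TMM scaling, two-sided quasi-likelihood test, Benjamini-Hochberg adjustment over all genes tested), and genes with an adjusted p under 0.05 and at least a 1.5-fold change were called. The standard error of a log2 fold change was taken from the F statistic. Changes in SUDHL16 and SUDHL6 were compared by the interaction of line and resistance over all 12 libraries, called at an adjusted p under 0.05. CPM are on the TMM scale. The alternatives were DESeq2 1.42.0, upper-quartile scaling, library totals, no filter on low counts, protein-coding genes only, a single fit of all 12 libraries, no limit on fold, and each library left out in turn. The tests were checked on simulated counts. Figures were drawn with matplotlib 3.10.9.

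Members, roles and lists were chosen with earlier results of these data known, and roles and lists were written from general knowledge. Values per library are given for members called in either line, the ADP/ATP carriers and SLC25A3, other members by log2 fold change where the adjusted p was under 0.05 and otherwise by range, and list genes where called, up to 3 per line. SLC25A11 and the members and list genes named outside this rule were chosen after their values were seen. The symbol TMBIM5 of the list of other transport genes had no match. No pair of libraries had identical counts. Promoters are from RefSeq, for 39 members. Protein sequences were not used here.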

Additional observations from a re-analysis of the deposited data

Results flagged for a closer look

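The change in resistant cells differed between the lines for 2 carriers by the test of the difference itself (edgeR's quasi-likelihood interaction, 3 libraries in each of the 4 conditions). For SLC25A27 the difference, SUDHL16 minus SUDHL6, was -1.95 on the log2 scale (SE 0.27, adjusted p = 0.00101). It was higher in 3 of 3 resistant SUDHL6 libraries and lower in 3 of 3 resistant SUDHL16 libraries than in every parental library of the line. For SLC25A4 the difference was 0.92 (SE 0.23, adjusted p = 0.0309), with the groups apart in SUDHL16 and overlapping in SUDHL6. This difference lost the threshold under 11 of 17 alternatives, with adjusted p of up to 0.143, while that of SLC25A27 kept it under all 17. Kit and instrument cannot be told apart from the line in either difference. Both tests apply a common spread to lines of unlike spread, so their adjusted p may be too small.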

How the results depend on the processing

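In SUDHL6, 0 members were called under the main settings and under every alternative but the removal of the limit on fold, which gave 14. In SUDHL16 the count was 1 under the main settings, 3 with DESeq2, 2 without the filter on low counts, 2 with protein-coding genes only and 5 in the single fit of all 12 libraries, and 0 to 2 when a library was left out. For the difference between the lines it was 2 under the main settings, 4 with DESeq2, 1 with library totals, 1 without the filter, 4 with protein-coding genes only and 4 with upper-quartile scaling, and 1 to 4 when a library was left out. The log2 fold change of SLC25A3 in SUDHL6 turned from -0.01 to 0.01 with upper-quartile scaling and ranged from -0.03 to 0.01 when a library was left out, with 0.01 without CE-11. Of the other log2 fold changes followed under alternatives, 272 kept direction and side of the threshold, 41 lost it and 12 gained it. Those followed in SUDHL6 were of the 14 members that passed, SLC25A3, SLC25A4 and SLC25A11. In SUDHL16 they were of SLC25A3, SLC25A4, SLC25A5, SLC25A6, SLC25A11 and SLC25A27, and for the difference of SLC25A4, SLC25A11 and SLC25A27. Members outside this count also changed sign, such as SLC25A29 in SUDHL16 without CE-26 (-0.52 to 0.35). All 14 members that passed in SUDHL6 lost the threshold in the single fit of all 12 libraries, which applies a common spread to both lines. Library totals moved the median of all genes in SUDHL16 by 0.13 on the log2 scale, and upper-quartile scaling that of the difference by -0.15. Under upper-quartile scaling 24 and under library totals 28 of 39 members were higher in SUDHL16. The cause of these shifts was not tested. The low depth and low protein-coding share of CE-26 limit the values of the members in SUDHL16. No paired analysis was possible because the labels carry no replicate numbers.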

Other observations

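TOMM6, a small subunit of the outer membrane import pore, varied between SUDHL6 libraries far more than the carriers did, from 20.1 to 91.9 CPM in parental and from 0.909 to 61.7 CPM in resistant cells. SLC25A16 had 1158 counts in CE-26, more than in any other SUDHL16 library, although this library had the lowest total count. Both genes were chosen after their values were seen.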
